A study of Mus musculus with 36 samples.

Results

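The 10 genes followed here belong to the unfolded protein response and the integrated stress response of bone marrow-derived macrophages (BMDMs). They were Hspa5, Herpud1, Xbp1, Atf4, Asns, Chac1, Trib3, Ddit3, Atf5 and Sesn2, and their rows were taken by gene symbol from a count table of 54532 rows. These 10 genes made up 11 rows, because Ddit3 had 2. The second Ddit3 row, a model of 105 bases, held 0 counts in each of the 36 libraries and was not tested, so the 10 rows with counts were used throughout.

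The cells came from C57BL/6 mice, females by the study's methods, and each animal's marrow was cultured for 7 days with MCSF. KO cells had the genotype LysM-Cre;Bmal1 flox/flox (n = 6), in which a myeloid promoter drives Cre against the clock gene Bmal1. WT cells were from Bmal1 flox/flox littermates without Cre (n = 3), so all animals carried the floxed allele. Cells of each genotype were treated for 6 h with DMSO vehicle, 100 nM LPS (lipopolysaccharide, the bacterial ligand of TLR4), 100 µM CCM (a small molecule that binds BMAL1), or LPS with CCM. The same replicate number occurs in all 4 treatments of a genotype, although the labels do not say that a number marks an animal, so p-values measure the spread between these libraries.

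Endoplasmic reticulum (ER) stress is sensed by PERK, IRE1 and ATF6. IRE1 splices the mRNA of Xbp1 into the form that encodes the active factor XBP1s, ATF6 is cleaved to a factor that raises chaperones, and PERK phosphorylates eIF2α. The kinases GCN2, PKR and HRI phosphorylate the same eIF2α in response to amino acid shortage, double-stranded RNA and haem shortage, and this shared pathway is called the integrated stress response. It slows general translation while translation of ATF4 increases, so that ATF4 can be regulated with little change of its mRNA. In macrophages, signals from Toll-like receptors are known to engage IRE1 and XBP1. The counts used here are per gene, so spliced and unspliced Xbp1 mRNA were not separated, and neither phosphorylation nor protein was measured.

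Totals were 13469262 to 28288923 counts per library. Levels are given as CPM (counts scaled to a common library size, with TMM factors), differences as log2 fold changes, and a gene was called at an adjusted p of at most 0.05 over all genes tested by edgeR's quasi-likelihood test with Benjamini-Hochberg adjustment. Pairs of libraries of 1 group differed by a chi-square per degree of freedom of 116 to 335 where 1 was KO replicate 6, which stood apart in all treatments. With LPS and CCM, KO replicate 5 differed from replicates 1 to 4 by 56.9 to 155 and KO replicate 2 from replicates 1, 3 and 4 by 50.3 to 55.5, against 4.08 to 27.5 for all other pairs. In bulk RNA, fewer cells expressing a gene and less RNA per cell cannot be told apart. All 12 macrophage markers were detected, with a summed level of 13800 to 25000 CPM per library, whereas 8 B cell markers summed to 25.7 to 254 CPM and 8 T cell markers to 8.8 to 34.3 CPM. The 10 neutrophil markers summed to 533 to 1330 CPM and 8 fibroblast markers to 313 to 1720 CPM. Arntl, the gene symbol of Bmal1 and the gene targeted here, averaged 9.2 to 10.7 CPM per WT replicate and 3.38 to 9.23 CPM per KO replicate, and these gene-level counts do not separate the deleted part. The LPS marker Tnf rose by 6.18 in WT and by 5.98 in KO on the log2 scale (adjusted p = 2.7e-11 and 8.3e-11).

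The promoter sequences of 4 of the genes are shown because they hold letters of textbook elements of this response before their starts. These 4 genes were also the ones that LPS raised in both genotypes. Whether the elements take part in that rise was not tested. The sequences are from RefSeq on GRCm38.p6, the assembly also called mm10, and are written 5′ to 3′ on the strand of the gene. Capitals mark the matches. The letters searched on both strands were TGATGNAA for the CARE, the composite site of ATF4 with a C/EBP partner, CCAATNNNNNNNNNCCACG for the ER stress element ERSE, and ATTGGNCCACG for ERSE-II.
Asns, chr6:7693214-7693243, minus strand: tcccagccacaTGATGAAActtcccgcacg
Chac1, chr2:119351029-119351076, plus strand: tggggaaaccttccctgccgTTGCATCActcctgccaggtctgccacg
Hspa5, chr2:34772020-34772048, plus strand: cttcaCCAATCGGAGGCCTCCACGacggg
Herpud1, chr8:94386297-94386407, plus strand: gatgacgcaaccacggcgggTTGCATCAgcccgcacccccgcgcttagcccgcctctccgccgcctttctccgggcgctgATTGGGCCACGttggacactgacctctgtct

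The windows searched ran from 250 bases before to 50 bases after each annotated start, and all 10 symbols had an entry. The CARE letters lay 23 bases before the start of Asns on the strand shown, and on the opposite strand 193 bases before the start of Chac1 and 112 bases before that of Herpud1. Trib3, which was not called with LPS in either genotype with all replicates, held a CARE match after its start and is not shown. In all, 4 of the 10 genes had these letters, and 3.97% of 32851 promoter entries for 27025 symbols did. The 10 were chosen as genes of this response and are counted as genes, not entries, so these shares are a description and no test. The ERSE letters lay 65 bases before the start of Hspa5 and were found in 0.119% of promoters. The ERSE-II letters lay 52 bases before the start of Herpud1 and were found in 0.0365%. These distances are from the RefSeq starts. The gene models that were counted begin farther upstream for Asns and Hspa5, so the matches of Asns and Hspa5 lie inside those models. The searched UPRE letters of XBP1s, TGACGTGG (0.676% of promoters), and CRE letters, TGACGTCA (1.79%), were in none of the 10 genes' windows. A match describes the letters in these windows and says nothing of binding.

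Compared per kilobase of the gene model, the chaperone gene Hspa5 had the highest level in WT cells with vehicle, at 177 ± 5.13 CPM per kb (SD, n = 3). Atf4 came next at 113.4 ± 11, followed by Xbp1 at 37.8 ± 2.51 and Atf5 at 18.8 ± 0.961 CPM per kb. Herpud1 (11.7 ± 0.334), Ddit3 (9.77 ± 2.06) and Asns (9.65 ± 0.159 CPM per kb) had neighbouring ranges that overlapped. Sesn2 (6.05 ± 0.573), Trib3 (3.69 ± 0.272) and Chac1 (1.91 ± 0.418 CPM per kb) were lowest, and their ranges did not overlap. Under LPS, Asns moved from the seventh to the fourth place of this order, at 25.8 ± 3.07 CPM per kb. Chac1 was the least deeply counted of the genes, with 31 to 134 counts per library, whereas Hspa5 had 7727 to 31622.

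**Figure D1:**
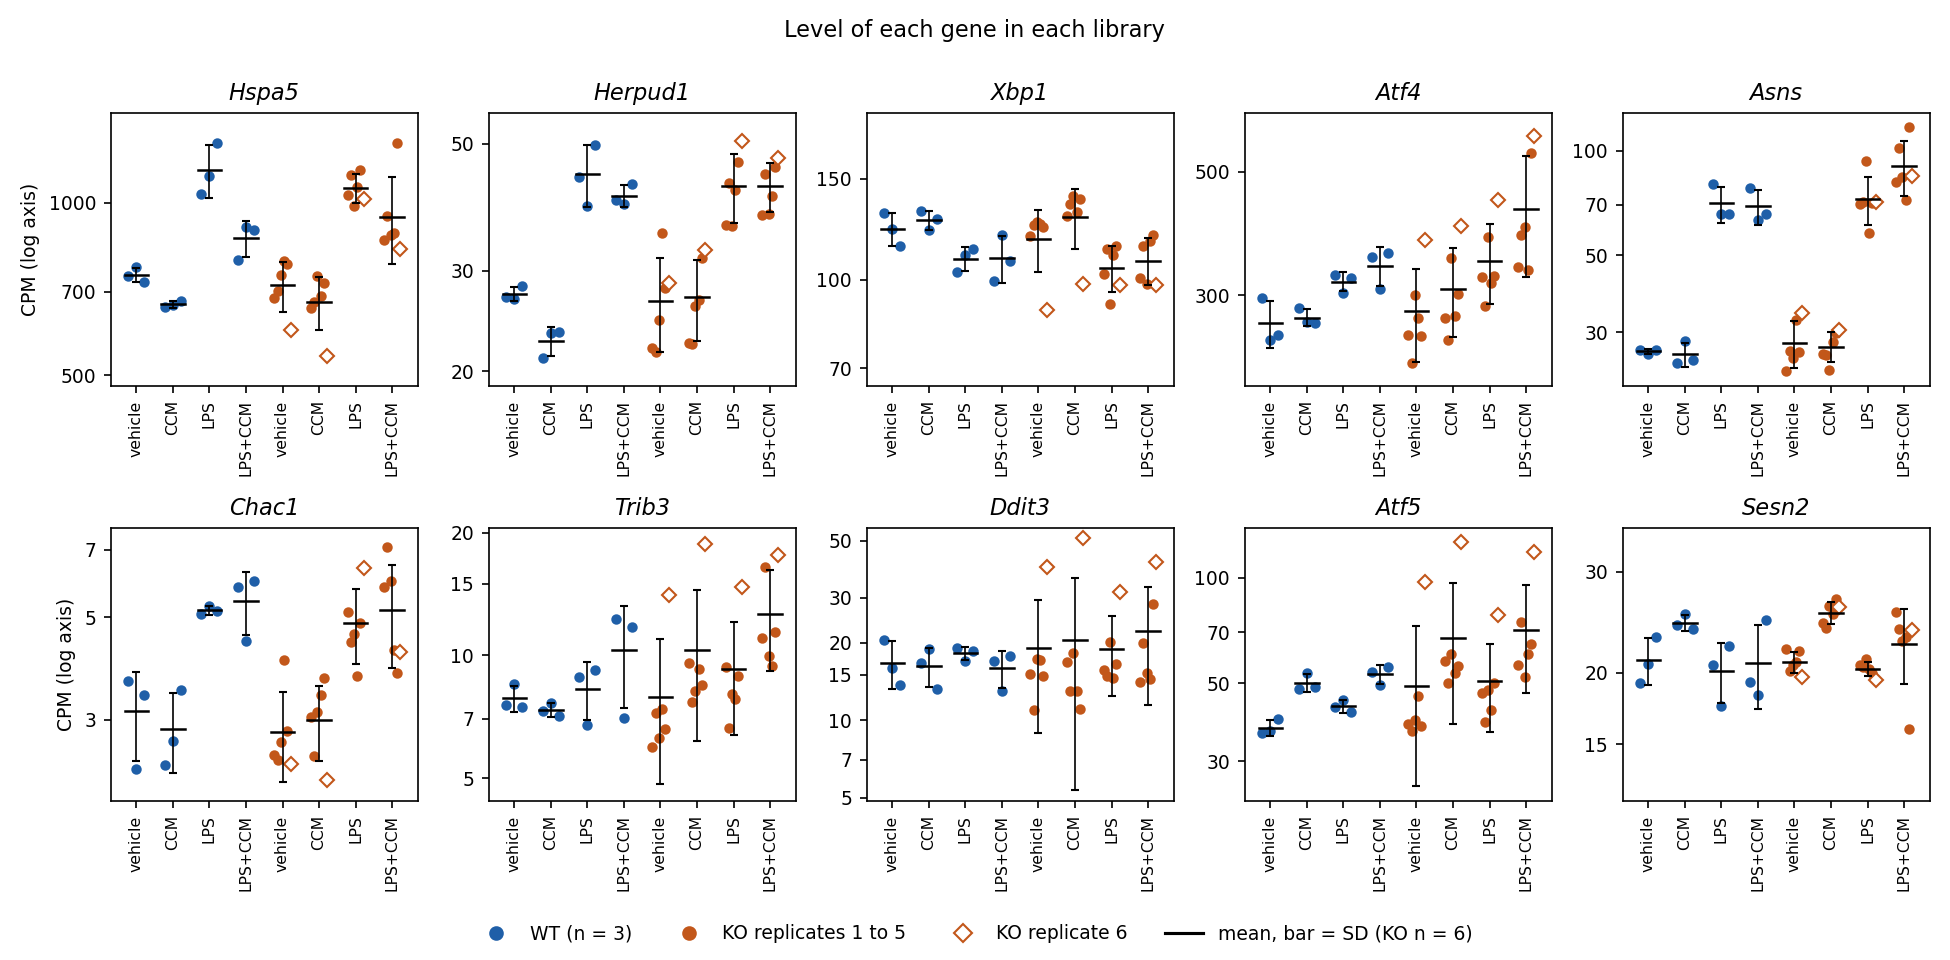
CPM on a log axis of each of the 10 genes in each of the 36 libraries, by genotype and treatment. Points are libraries, black lines are group means and bars the SD (WT n = 3, KO n = 6). Asns, Hspa5 and Herpud1 separate the libraries with LPS from those with vehicle in both genotypes. The open diamonds of KO replicate 6 lie above the other KO libraries of the same treatment for Ddit3, Atf5, Trib3 and Atf4.

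LPS raised Asns, Chac1, Herpud1 and Hspa5 in both genotypes. In WT cells 6 of the 10 genes were called, and all 6 were higher: Asns, Chac1, Herpud1, Hspa5, Atf4 and Atf5. Over all genes 63% of 14501 tested were called (4441 higher and 4698 lower), so 6 of 10 is close to the background. The median log2 fold change of the 10 genes was 0.25, beside -0.05 for all genes tested. In KO cells 4 of the 10 were called, all higher, namely Asns, Chac1, Herpud1 and Hspa5, beside 47.1% of 13648 genes. The median of the 10 in KO was 0.27, beside -0.05 for all genes.

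The largest change was that of Asns (ENSMUSG00000029752, chr6:7675169-7693254), which encodes asparagine synthetase and is a standard target of ATF4. Its level was 26.7, 25.9 and 26.6 CPM in the 3 WT vehicle libraries and 80.2, 65.7 and 65.7 CPM in the 3 with LPS. Its KO values were 23.1 (lowest), 26.4 (median) and 34 CPM (highest) with vehicle, and 57.8, 71.1 and 93.5 CPM with LPS. All libraries with LPS lay above all with vehicle in either genotype. The log2 fold change was 1.44 (SE 0.0875, adjusted p = 2.57e-07) in WT, a 2.72-fold difference, and 1.38 (SE 0.138, adjusted p = 2.3e-06) in KO, by edgeR.

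Hspa5 (ENSMUSG00000026864, chr2:34771970-34777547) encodes BiP, the main HSP70 chaperone of the ER lumen and the protein that holds the stress sensors inactive. In WT it was 746, 772 and 728 CPM with vehicle and 1037, 1113 and 1273 CPM with LPS. In KO it ranged from 598.6 (median 725.4) to 791.1 CPM with vehicle and from 988.7 (median 1049) to 1143 CPM with LPS, again with no overlap. The log2 fold change was 0.64 (SE 0.0785, adjusted p = 5.46e-05) in WT and 0.57 (SE 0.0869, adjusted p = 0.00011) in KO by edgeR.

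Herpud1 (ENSMUSG00000031770, chr8:94386438-94395377) encodes an ER membrane protein of the degradation machinery. It was 27, 26.8 and 28.2 CPM with vehicle and 43.8, 38.9 and 49.8 CPM with LPS in WT. The KO values were 21.6 to 34.9 CPM (median 26.3) with vehicle and 35.8 to 50.6 CPM (median 42) with LPS. Groups did not overlap in either genotype, and the log2 fold change was 0.72 (SE 0.0924, adjusted p = 7.27e-05) in WT and 0.68 (SE 0.145, adjusted p = 0.00166) in KO by edgeR.

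Chac1 (ENSMUSG00000027313, chr2:119351229-119354381), which encodes an enzyme that degrades glutathione and lies downstream of ATF4 and CHOP, rose from 3.13 ± 0.685 to 5.18 ± 0.112 CPM (SD, n = 3) in WT. The vehicle libraries were at 3.64, 2.35 and 3.39 CPM and the LPS libraries at 5.08, 5.3 and 5.15 CPM. In KO the groups overlapped, with 2.4 to 4.04 CPM (median 2.6) against 3.72 to 6.4 CPM (median 4.73), and 5 of 6 same-numbered pairs were higher with LPS. The log2 fold change was 0.75 (SE 0.193, adjusted p = 0.00653) in WT and 0.79 (SE 0.181, adjusted p = 0.00265) in KO by edgeR.

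The transcription factor genes changed less. Atf4 (ENSMUSG00000042406, chr15:80255184-80257541) was 297, 250 and 255 CPM with vehicle and 327, 303 and 322 CPM with LPS in WT, a log2 fold change of 0.28 (SE 0.0684, adjusted p = 0.00512 by edgeR, and 0.347 with all 36 libraries in 1 fit). In KO, Atf4 was higher with LPS in 6 of 6 same-numbered pairs, and its log2 fold change of 0.31 (SE 0.164) gave an adjusted p of 0.148 without a block and of 1.84e-05 with the replicate number as a block. Xbp1 (ENSMUSG00000020484, chr11:5520659-5525893) had 131, 123 and 114 CPM with vehicle and 103, 110 and 113 CPM with LPS in WT. That difference of -0.14 (SE 0.0634) did not pass the test (adjusted p = 0.0756), nor did that of -0.16 in KO (SE 0.0954, adjusted p = 0.189). Without WT vehicle replicate 3, Xbp1 was called lower in WT (-0.18, adjusted p = 0.0352). Without KO replicate 6 the adjusted p values in KO by edgeR were 0.00601 for Xbp1, which was then lower, 0.00498 for Atf4 and 0.0379 for Trib3, both higher. In that fit 7 of the 10 genes were called. Leaving out 1 KO replicate at a time called from 5429 to 9612 genes of all tested, against 6433 with all replicates. The count of 7 is therefore not read as a gain particular to these genes.

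Atf5 (ENSMUSG00000038539, chr7:44812256-44816658), a factor of the mitochondrial stress response, was 36.1, 36.5 and 39.6 CPM with vehicle and 42.7, 45 and 41.4 CPM with LPS in WT. Its log2 fold change was 0.23 (SE 0.0693, adjusted p = 0.0151 by edgeR), and it was 0.05 (SE 0.286, adjusted p = 0.914) in KO. The WT call was lost without the LPS replicate 2 (adjusted p = 0.0667), with no filter on low counts (0.0709) and with all 36 libraries in 1 fit (0.682). Atf5 overlaps Nup62 and Il4i1 on the other strand, and whether the counting used strand is not stated. Nup62 differed by -0.004 on the log2 scale with LPS in WT (adjusted p = 0.962), and Il4i1 was at 0.0713 CPM on average with LPS.

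Ddit3 (ENSMUSG00000025408, chr10:127290774-127296288), which encodes the factor CHOP, was 20.6, 16 and 13.6 CPM with vehicle and 19.1, 17 and 18.6 CPM with LPS in WT, so the groups overlapped. Its log2 fold change was 0.16 (SE 0.135, adjusted p = 0.34) in WT and -0.01 (SE 0.323, adjusted p = 0.984) in KO. Without WT vehicle replicate 1 its adjusted p in WT was 0.0315, with a log2 fold change of 0.33. It overlaps Mars on the other strand, and Mars differed by 0.15 with LPS in WT (adjusted p = 0.112). Trib3 (ENSMUSG00000032715, chr2:152337422-152344032), which encodes a pseudokinase induced by ATF4 and CHOP, had a log2 fold change of 0.10 (SE 0.154, adjusted p = 0.576) in WT and 0.24 (SE 0.27, adjusted p = 0.523) in KO by edgeR. Sesn2 (ENSMUSG00000028893, chr4:132492032-132510501), which encodes a leucine sensor and inhibitor of mTORC1, had a log2 fold change of -0.04 in both genotypes (SE 0.114 and 0.0765, adjusted p = 0.798 and 0.755).

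The signs of the smaller LPS differences depended on scaling. With total counts as the sole scaling, the median log2 fold change of all genes moved from -0.05 to -0.47 in WT and to -0.44 in KO. In WT, Asns (1.03), Hspa5 (0.22) and Herpud1 (0.31) were then still higher, whereas Atf5 (-0.18), Sesn2 (-0.45) and Xbp1 (-0.55) were called lower and Chac1 (0.34) and Atf4 (-0.13) were not called. In KO, Asns (1.004) was then called higher and Sesn2 (-0.42) and Xbp1 (-0.56) lower. A change of scaling moves the differences of all genes, and their median, by nearly the same amount. Values relative to that median are therefore bound to agree under both scalings, and their agreement is no test of the LPS differences. In WT these relative values were 1.497 and 1.498 for Asns and 0.80 and 0.81 for Chac1. Under both scalings they were 0.77 for Herpud1, 0.69 for Hspa5, 0.33 for Atf4, 0.28 for Atf5, 0.02 for Sesn2 and -0.09 for Xbp1.

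**Figure D2:**
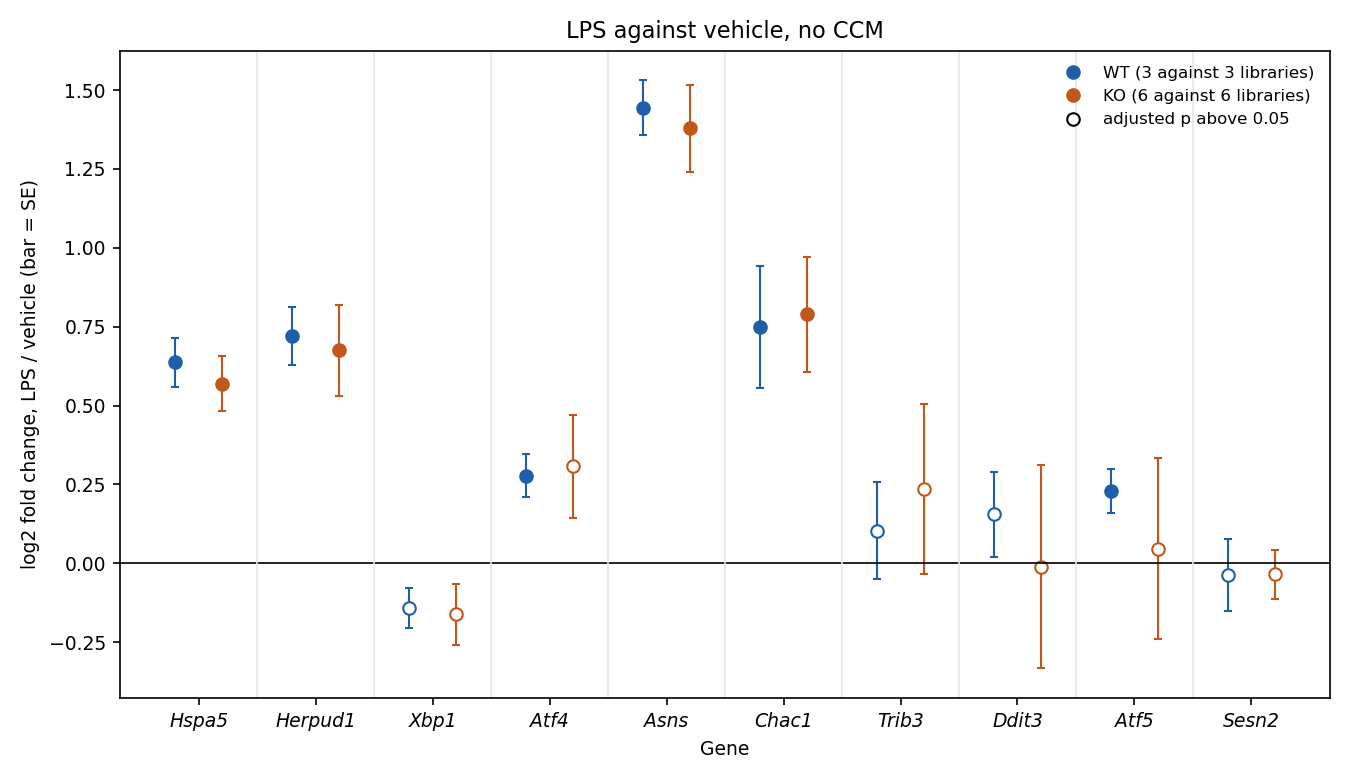
Log2 fold change with LPS against vehicle, without CCM, of the 10 genes in WT (3 against 3 libraries) and KO (6 against 6 libraries), by edgeR with TMM scaling. Bars are SE, filled points have an adjusted p of at most 0.05 and open points do not. Asns stands highest, at 1.44 in WT and 1.38 in KO, and Xbp1 and Sesn2 lie at or below 0.

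The response of the wider pathway to LPS was mixed. In 7 further lists, none of which holds any of the 10 genes, 57 of 130 genes tested were higher and 32 lower in WT, and 39 of 130 were higher and 20 lower in KO. These shares, 68.5% in WT and 45.4% in KO, are close to the 63% and 47.1% of all genes, and the share called per list ran from 56% to 84.6% in WT and from 24% to 75% in KO. Among sensors and eIF2 control, 6 of 14 were higher and 5 lower in WT (6 and 8 with total counts alone), and 6 were higher and 4 lower in KO. The interferon-induced eIF2α kinase gene Eif2ak2 (PKR) rose by 2.98 on the log2 scale in WT, from 29 ± 4.21 to 224.4 ± 10.5 CPM (SD, n = 3), and the eIF2α phosphatase subunit genes Ppp1r15a and Ppp1r15b rose by 1.83 and 1.59. The genes of the kinases PERK (Eif2ak3) and GCN2 (Eif2ak4) and of the sensor ATF6 (Atf6) fell by 1.03, 0.98 and 0.62. Adjusted p values by edgeR in WT were at most 1.26e-05 for these 6 genes, and each was called in the same direction in KO.

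Of the ATF4 and CHOP targets, 8 of 16 tested were higher and 5 lower in WT (7 and 5 with total counts alone, and 7 and 5 in KO). The cell cycle inhibitor Cdkn1a (p21) rose by 3.41, the stress-induced regulator Nupr1 by 3.20 and the autophagy receptor Sqstm1 (p62) by 1.99 in WT, while Ndrg1, Vegfa and Cebpg fell by 1.28, 1.05 and 0.73. Genes of amino acid supply split likewise, with 7 of 19 higher and 4 lower in WT (6 and 10 with total counts alone). Slc7a11, the cystine transporter, rose by 5.65 from 28.8 ± 3.51 to 1419 ± 274.4 CPM, its partner subunit Slc3a2 by 1.53 and the mitochondrial folate enzyme Mthfd2 by 1.74. The mitochondrial enzyme Pck2 and the glutamine transporter Slc1a5 fell by 1.14 and 1.07. Several of these genes are also known targets of other pathways, such as p53 and NRF2.

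The tRNA synthetase genes moved mostly upward, with 10 of 13 higher and 1 lower in WT and a median of 0.43, but with total counts alone 3 were higher and 6 lower. Wars, which is also interferon-induced, rose by 1.66, Aars by 1.11 and Gars by 0.61, and Xpot, the tRNA exporter, fell by 0.20. For ER-associated degradation 14 of 23 were higher and 2 lower in WT with a median of 0.29, which became 2 higher and 10 lower with total counts alone. Rnf139 and Nploc4 rose by 0.92 each and Vcp, the segregase that extracts proteins from the ER membrane, by 0.56. XBP1s targets had 8 of 25 higher and 6 lower (3 and 18 with total counts alone), led by Serp1, a translocon-associated protein, which rose by 1.61.

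ER chaperones other than Hspa5 were the list with more genes lower than higher under LPS, 9 against 4 of 20 in WT (15 against 0 with total counts alone), with a median of -0.14. Erp29 fell by 1.53, from 239.4 ± 28.7 to 81.3 ± 2.14 CPM, the oxidase gene Ero1lb by 1.13 and Sdf2l1 by 0.82. Dnajc10, Manf and Erp44 rose by 0.48, 0.27 and 0.27.

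In KO the same lists held fewer calls without a block and about as many as WT with the replicate number as a block. Over all genes the calls rose likewise, from 3060 higher and 3373 lower without the block to 4656 and 5118 with it. The rise is therefore not particular to these lists. Amino acid supply went from 6 higher and 2 lower to 10 and 3, and tRNA synthetases from 6 and 0 to 10 and 1. XBP1s targets went from 3 and 3 to 9 and 6, ER chaperones from 1 and 5 to 5 and 10, and ER-associated degradation from 10 and 1 to 14 and 2.

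**Figure D3:**
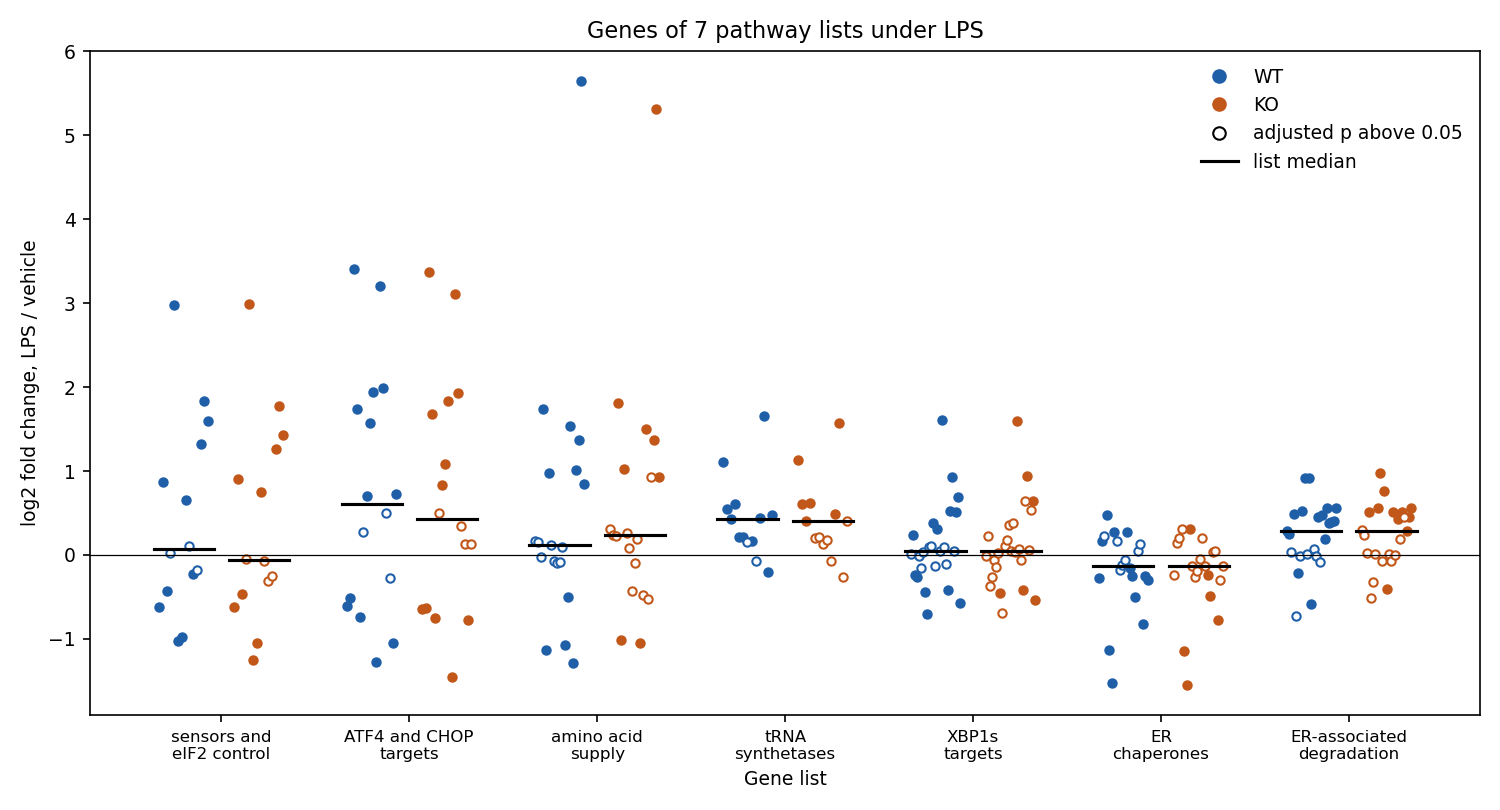
Log2 fold change with LPS against vehicle of each tested gene of the 7 lists in WT and KO, by edgeR with TMM scaling. Filled points have an adjusted p of at most 0.05, and black lines are list medians. Slc7a11 is the highest point, at 5.65 in WT, and the ER chaperones have medians below 0 in both genotypes.

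CCM was compared with its absence to ask what a BMAL1 ligand does to these genes. In WT cells under LPS, 2 of the 10 genes were called, Hspa5 lower and Atf5 higher, beside 11.9% of 13579 genes (564 higher and 1057 lower). Hspa5 was 1037, 1113 and 1273 CPM with LPS and 796, 909 and 898 CPM with LPS and CCM, and the groups did not overlap. Its log2 fold change was -0.39 (SE 0.0749, adjusted p = 0.00799 by edgeR, 4.22e-07 with a replicate block), which is 0.764 of the level without CCM. The level with LPS and CCM, 867.6 ± 62.2 CPM, remained numerically above the 748.5 ± 21.7 CPM of vehicle.

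Atf5 was 42.7, 45 and 41.4 CPM with LPS and 53.7, 49.5 and 55.8 CPM with LPS and CCM, all 3 higher. Its log2 fold change was 0.31 (SE 0.0635, adjusted p = 0.0109 by edgeR), and that of the overlapping Nup62 was 0.18 (SE 0.0549, adjusted p = 0.0568). Atf4 differed by 0.10 (SE 0.0626), with an adjusted p of 0.349 without a block and 0.0472 with the replicate block. The other 7 genes did not pass the test, and their log2 fold changes ran from -0.19 for Ddit3 to 0.33 for Trib3. When all 36 libraries shared 1 estimate of spread, 0 of the 10 genes were called by edgeR, with adjusted p values of 0.388 for Hspa5 and 1 for Atf5, and 17 of all genes were called.

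In WT cells without LPS, 0 of the 10 genes were called by edgeR, beside 0.057% of 14024 genes. At an unadjusted p below 0.05 there were 4 of the 10, beside 1404 of the 14024. Beside 131 genes higher and 110 lower of all tested, DESeq2 called 1 of the 10, Atf5. Its values were 36.1, 36.5 and 39.6 CPM with vehicle and 48.3, 53.6 and 48.7 CPM with CCM, with a log2 fold change of 0.43 (SE 0.0698, adjusted p = 0.0757 by edgeR and 0.000296 by DESeq2). Atf5 in these groups did not overlap. Hspa5 and Herpud1 had log2 fold changes of -0.16 (SE 0.0532) and -0.26 (SE 0.0759), with adjusted p values of 0.352 and 0.275. Sesn2 was 19.2, 20.8 and 23.1 CPM with vehicle and 24.2, 25.4 and 23.8 CPM with CCM, without overlap but not called.

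In KO cells without LPS, 0 of the 10 genes were called by edgeR, beside 0% of 13799 genes. At an unadjusted p below 0.05 there was 1 of the 10, beside 333 of the 13799. DESeq2 called 1, Sesn2, beside 16 genes higher and 26 lower of all tested. With the replicate number as a block, Atf5 (0.47, adjusted p = 0.00105) and Sesn2 (0.28, adjusted p = 0.0222) were called higher by edgeR. Of all genes tested, 195 were higher and 234 lower with that block. Without KO replicate 6 and without a block, Atf5 and Sesn2 were again the 2 called (adjusted p = 0.00841 for Atf5 and 0.0494 for Sesn2 by edgeR). Leaving out 1 KO replicate at a time called from 0 to 141 genes of all tested. Sesn2 was 19.7 (lowest), 20.8 (median) and 22 CPM (highest) with vehicle and 23.9, 25.7 and 26.9 CPM with CCM, without overlap. Atf5 was higher with CCM in 6 of 6 pairs, with medians of 38.8 and 57.1 CPM.

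In KO cells under LPS, 0 of the 10 genes were called by edgeR, beside 0.112% of 13386 genes, with 0 at an unadjusted p below 0.05. DESeq2 also called 0. The deviations of same-numbered libraries correlated at -0.1 to 0.81 here, so the numbers were not taken as pairs. Counts of same-numbered libraries are therefore a description and no test. By that count Atf5 was higher with CCM in 6 of 6 (log2 fold change 0.46, SE 0.236, adjusted p = 0.689 by edgeR). Hspa5 was lower in 5 of 6, its medians being 1049 and 882.5 CPM (log2 fold change -0.20, SE 0.115, adjusted p = 0.746 by edgeR). Trib3 and Atf4 were higher in 6 of 6 each, at 0.42 (SE 0.233) and 0.28 (SE 0.18), without passing the test (adjusted p = 0.722 and 0.781 by edgeR). The libraries of KO replicates 2 and 5 with LPS and CCM stood apart from the other 3 of replicates 1 to 5. Without replicate 2 Trib3 was at 0.248, and without replicate 5 Atf4 was at 0.185 and Hspa5 at -0.275. Leaving out either left Atf5 at 0.375 and 0.482.

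**Figure D4:**
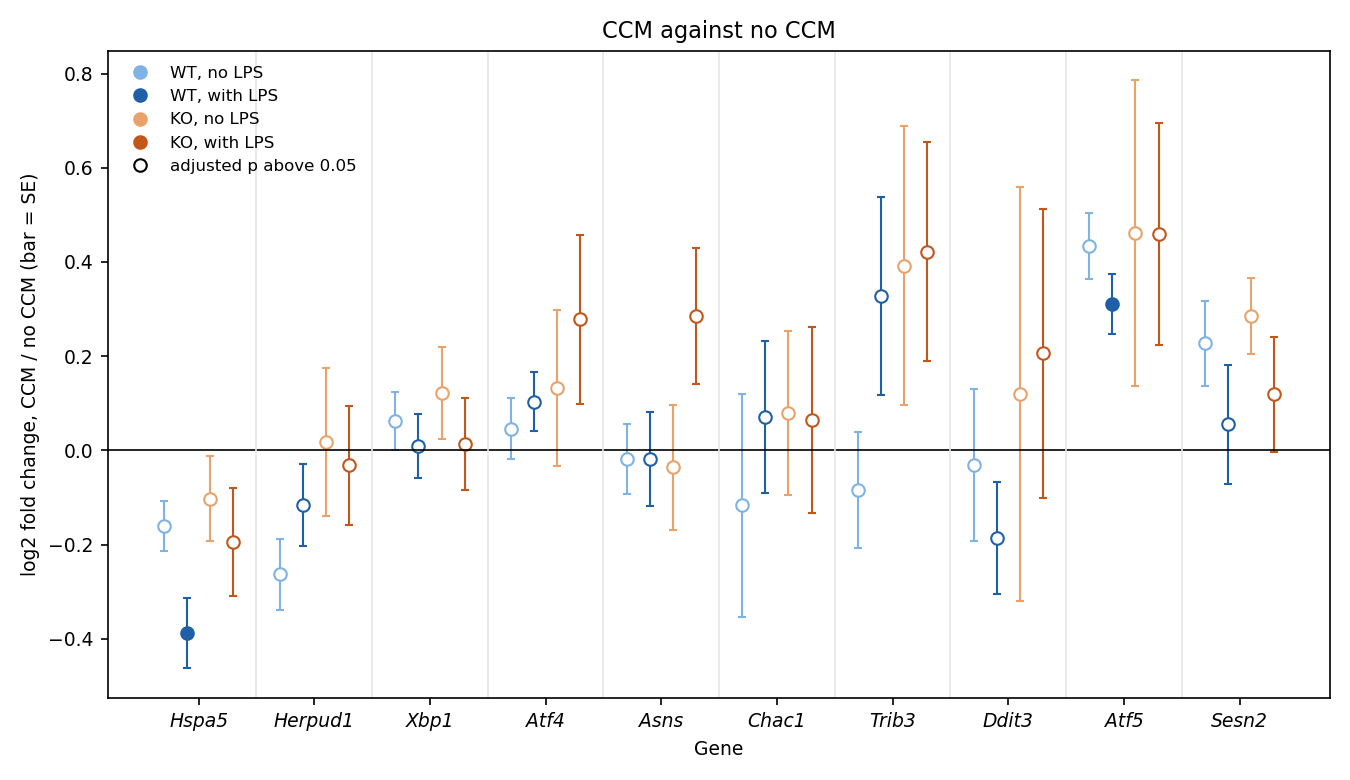
Log2 fold change with CCM against no CCM of the 10 genes, without and with LPS, in WT and KO, by edgeR with TMM scaling. Bars are SE and filled points have an adjusted p of at most 0.05. The 2 filled points are Hspa5 (-0.39) and Atf5 (0.31) in WT with LPS, and the 4 Atf5 points lie between 0.31 and 0.46.

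Of the wider lists in WT under LPS, 4 of 129 genes tested were higher and 8 lower with CCM, a share of 9.3% beside the 11.9% of all genes. Cdkn1a fell by 0.90, from 782.8 ± 91.6 to 418.8 ± 53.7 CPM (adjusted p = 0.000296 by edgeR), the stress cytokine Gdf15 by 0.69 and the mTORC1 inhibitor Ddit4 by 0.62 (adjusted p = 0.0317 and 0.0314). Rnf139 fell by 0.37, Wars by 0.30, Eif2ak2 by 0.26, and Slc7a5 and Selenok by 0.24 each. Pck2 (0.32), Sec24d (0.31), Erp29 (0.27) and Xpot (0.19) were higher.

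Whether CCM changed the response to LPS was tested as an interaction. None of the 10 genes was called in WT (0 by edgeR, 0 by DESeq2), beside 2.09% of 14747 genes by edgeR. At an unadjusted p under 0.05 there was 1 of the 10, beside 2060 of the 14747. The interaction of Hspa5 was -0.24 (SE 0.1, adjusted p = 0.286) and that of Atf5 -0.14 (SE 0.0933, adjusted p = 0.568), so a difference of the CCM effect between cells with and without LPS was not shown. In KO, 0 of the 10 were called by edgeR and by DESeq2, with 0 at an unadjusted p under 0.05, beside 0.00685% of 14588 genes.

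No difference between genotypes was detected for any of the 10 genes. With vehicle, 0 were called by edgeR and by DESeq2 and 0 had an unadjusted p under 0.05, beside 0% of 14385 genes, with log2 fold changes from -0.10 for Chac1 to 0.46 for Atf5. Without KO replicate 6, at 97.1 CPM, that of Atf5 was 0.105. Under LPS the same counts were 0, 0 and 0, beside 0% of 13794 genes, with log2 fold changes from -0.08 to 0.27. The response to LPS did not differ detectably by genotype either (0, 0 and 0, beside 0% of 15093 genes), with interaction terms from -0.16 to 0.15 and SE of 0.133 to 0.485. The effect of CCM under LPS gave 0, 0 and 0 beside 0% of 14546 genes, with SE of 0.148 to 0.47. The interaction for Hspa5 was 0.21 (SE 0.178), so the call in WT and its absence in KO were not shown to differ.

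KO replicate 6 stood apart in all 4 treatments. Its Ddit3 level was 31.4 to 51 CPM, 2 to 3.92 times the median of the other 5 KO replicates, and lay above all of them in 4 of 4 groups. Atf5 was 1.68 to 2.53 times, Trib3 1.6 to 2.21 times and Atf4 1.38 to 1.51 times that median, also above all others in 4 of 4 groups. Herpud1 (1.16 to 1.25 times) was above all others in 3 of 4 groups and Asns (1 to 1.29 times) in 2 of 4. Hspa5 (0.788 to 0.951 times) and Xbp1 (0.712 to 0.888 times) were below all others in 3 of 4 groups. Sesn2 (0.941 to 1.03 times) was below all others in 2 of 4 groups. Chac1 (0.715 to 1.39 times) was above all others in 1 group and below in 2. Nup62, which overlaps Atf5, was also above the other KO replicates in each treatment, at 75.1 CPM against at most 74.5 with vehicle, 93.2 against 85.2 with CCM, 87.5 against 79.3 with LPS and 107 against 95.5 CPM with both. Mars, which overlaps Ddit3, was above the others in 3 of 4 treatments, at 57.3 CPM against at most 52.4 with vehicle, 65 against 49.9 with CCM and 63.5 against 53.3 CPM with LPS, and was 60.5 CPM within 52.8 to 64.9 CPM with both.

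The same replicate had the lowest Arntl level (3.38 CPM on average) and a summed neutrophil marker level of 1190 to 1330 CPM, against 560 to 1260 CPM in the other KO libraries and 533 to 836 CPM in WT. All 10 neutrophil markers had counts, although Ly6g was at 0.155 to 0.562 CPM. The markers did not move together. S100a9 was at 445 to 479 against 136 to 394 CPM in the other KO libraries, and S100a8 at 304 to 405 against 101 to 339 CPM. Ngp (160 to 183 against 97 to 275 CPM) and Ltf (30.1 to 106 against 20.1 to 170 CPM) lay within the range of the others. Csf3r (56.4 to 191 against 87.9 to 264 CPM) reached below it, and the remaining markers had overlapping ranges. The macrophage markers C1qa (735 to 1340 against 246 to 563 CPM) and C1qb were higher and Mertk (27.6 to 43.1 against 40.2 to 187 CPM) was lower than in most other KO libraries. The part of these markers in the level of the 10 genes was not tested.

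**Figure D5:**
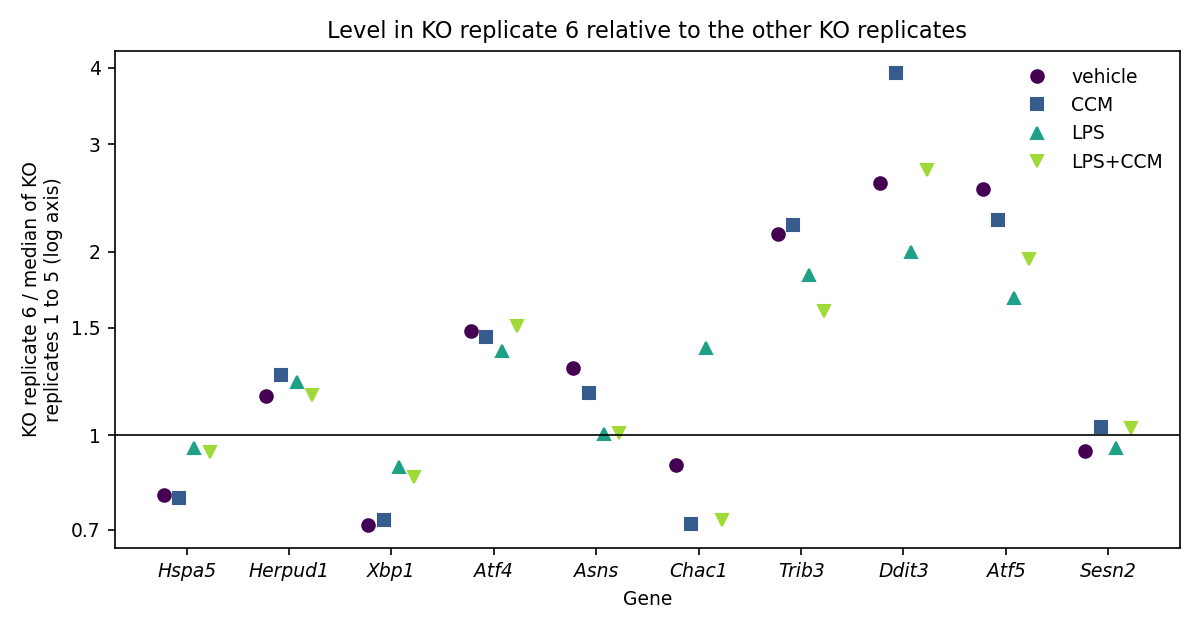
Level of each of the 10 genes in KO replicate 6 divided by the median of KO replicates 1 to 5 in the same treatment, on a log axis, for the 4 treatments. Ddit3, Atf5, Trib3, Atf4 and Herpud1 lie above 1 in all 4 treatments, up to 3.92 for Ddit3 with CCM, and Xbp1 and Hspa5 lie below 1.

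Likeness between the genes is described by Pearson's r of log2 CPM over the 36 libraries, which come from 9 replicate numbers and 4 treatments and are not independent. Asns went with Herpud1 (r = 0.894), Chac1 (0.827) and Hspa5 (0.794), the genes raised by LPS. Atf5 went with Trib3 (0.87), Ddit3 (0.768) and Atf4 (0.729), which in KO replicate 6 lay above all other KO replicates in all 4 treatments. The r of Atf5 with Hspa5 was -0.204. Atf4 was nearly as much like Asns (0.688) and Herpud1 (0.67) as like Atf5. Xbp1 had a negative r with each of the others but Sesn2 (0.227), and Sesn2 reached at most 0.262 with any of them. Among 11178 genes, Asns was most like Rap2b (0.98), Hspa5 most like Tra2a (0.943), Herpud1 most like Ly6e (0.946) and Atf5 most like Pdlim4 (0.925), whereas no gene reached more than 0.683 with Sesn2.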

How the data were processed

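Poly(T)-selected RNA of 36 BMDM libraries was sequenced as paired ends. The authors trimmed reads with fastp, aligned them to mm10 with HISAT2 2.0.5 and counted them with featureCounts 1.5.0-p3, per the labels and the methods. The deposited values are raw counts per gene, and 0 count columns were left unused. Whether reads were counted by strand is not given in the sources used here. Each pair of libraries of a group differed by more than counting noise (the chi-square over genes was 4.08 or more for each degree of freedom).

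From the counts, each comparison was fitted over all genes on its own groups with edgeR 4.0.16 in R 4.3.3 (filterByExpr, TMM, glmQLFit, glmQLFTest, no block, Benjamini-Hochberg, two-sided). All 10 genes passed the filter in each comparison. Interactions were terms of fits on the 4 groups concerned. Log2 CPM used a prior count of 2. Alternatives were DESeq2 1.42.0, RLE size factors, total counts alone, no filter, all 36 libraries in 1 fit, a replicate block and leaving out replicates. A block with KO replicate 6 left out was added after seeing the data. The code was tested on simulated data.

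The replicate numbers of the labels were taken as pairs where the deviations from group means of all same-numbered libraries correlated above 0.1. This held for LPS in KO (0.298 to 0.83), CCM in KO without LPS (0.337 to 0.844) and CCM under LPS in WT (0.151 to 0.36). Differently numbered libraries had a median correlation of 0.172, 0.221 and -0.132 in the same order. In the KO comparisons these medians also lay above 0.1, so passing that bar does not by itself show that the numbers mark pairs.

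The 10 genes and the 7 lists were chosen with earlier results of these data known. Named beside the 10 are, per list, up to 3 genes raised and 3 lowered most among those called with an average log2 CPM of at least 1 (LPS, and CCM under LPS in WT), and genes most correlated with each of the 10. Mars, Nup62 and Il4i1 are named because they overlap genes of the set, and the interaction of no list gene is given. Promoters and motifs are from RefSeq entries on GRCm38.p6.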

Additional observations from a re-analysis of the deposited data

Results flagged for a closer look

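In 15 of 40 groups of 6 KO libraries (10 genes by 4 treatments), the highest or lowest library stood farther from its neighbours than Dixon's 95% limit allows, and chance flags about 1 in 20 groups. The same replicate numbers recur in the 4 treatments, so the flags may not be independent. Of these, 12 belong to KO replicate 6. Its Ddit3 level was 39.3 CPM with vehicle, 51 CPM with CCM and 31.4 CPM with LPS. Its Trib3 level was 14.1, 18.7 and 14.7 CPM in the same 3 treatments. Its Atf5 level was 97.1 CPM with vehicle, 126 CPM with CCM, 78.5 CPM with LPS and 118 CPM with both. Its Xbp1 level was low, at 88.6 CPM with vehicle and 98.3 CPM with CCM. The other 3 were Chac1 in KO replicate 4 with vehicle (4.04 CPM, the next being 2.83 CPM) and, in KO replicate 5 with LPS and CCM, Hspa5 at 1270 CPM (the next being 949 CPM) and Sesn2 at 15.9 CPM (the next being 22.8 CPM).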

How the results depend on the processing

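The LPS difference of Asns passed the threshold in the same direction under each alternative run in both genotypes, with log2 fold changes of 1.033 to 1.499 in WT and 1.004 to 1.465 in KO. Hspa5 and Herpud1 kept their LPS calls in WT under each alternative and lost them in KO with total counts alone (adjusted p = 0.236 and 0.0952). Chac1 lost its LPS call with total counts alone in both genotypes (adjusted p = 0.127 and 0.0912). The lower Hspa5 level with CCM under LPS in WT was called under each alternative except the fit of all 36 libraries. Among the values of the 10 genes that the text names, under the alternatives that keep all replicates, and of those without KO replicate 6 in a block, 205 kept direction and side of the threshold, 18 newly passed it, 9 fell below it and 16 changed sign. The cause of each change was not tested. The paired fits with a replicate block changed no call of the 10 genes beyond those given for Atf4 in LPS in KO, for Atf5 and Sesn2 in CCM in KO without LPS and for Atf4 in CCM under LPS in WT. No correlation above 0.1 held for all pairs elsewhere, where the block called Atf5 in CCM in WT without LPS (adjusted p = 0.0145) and in CCM under LPS in KO (0.0378). No paired analysis was possible of KO against WT, because the genotypes are different animals. In WT, the LPS calls of Atf4 and Atf5 were lost with all 36 libraries in 1 fit (adjusted p = 0.347 and 0.682), which left 4 of the 10 genes called, and that of Atf5 with no filter on low counts (0.0709), which left 5. Chac1 had the fewest counts of the 10 genes, 31 in its shallowest library.

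With DESeq2, genes called of the 10 were 1 for CCM in WT without LPS and 1 for CCM in KO without LPS. In the same fits, genes called of all tested were 241 for CCM in WT without LPS, 42 for CCM in KO without LPS, 200 for CCM under LPS in KO, 688 for LPS by CCM in WT, 12 for LPS by CCM in KO, 1 for KO against WT with vehicle and 2 for KO against WT under LPS. There, the sign changed for LPS in WT of Sesn2 (0.001), for LPS in KO of Ddit3 (0.011) and Sesn2 (0.001). With RLE size factors, the sign changed for LPS in WT of Sesn2 (0.001), for LPS in KO of Ddit3 (0.013) and Sesn2 (0). With total counts alone, genes called of all tested were 0 for LPS by CCM in KO. There, the sign changed for LPS in WT of Atf4 (-0.13), Ddit3 (-0.25), Trib3 (-0.31) and Atf5 (-0.18), for LPS in KO of Atf4 (-0.072), Trib3 (-0.13) and Atf5 (-0.31). With no filter on low counts, genes called of the 10 were 1 for CCM in WT without LPS. In the same fits, genes called of all tested were 377 for CCM in WT without LPS, 721 for LPS by CCM in WT and 0 for LPS by CCM in KO. With all 36 libraries in 1 fit, genes called of the 10 were 0 for CCM under LPS in WT. In the same fits, genes called of all tested were 5644 for LPS in WT, 0 for CCM in WT without LPS, 14 for CCM in KO without LPS, 17 for CCM under LPS in WT, 285 for CCM under LPS in KO, 0 for LPS by CCM in WT and 8 for LPS by CCM in KO. There, the sign changed for LPS in KO of Ddit3 (0.001). With a replicate block, genes called of the 10 were 1 for CCM in WT without LPS, 2 for CCM in KO without LPS and 1 for CCM under LPS in KO. In the same fits, genes called of all tested were 9774 for LPS in KO, 255 for CCM in WT without LPS, 429 for CCM in KO without LPS, 3220 for CCM under LPS in WT, 777 for CCM under LPS in KO, 548 for LPS by CCM in WT and 81 for LPS by CCM in KO. There, the sign changed for LPS in KO of Ddit3 (0.05). With a replicate block and KO replicate 6 left out, an alternative chosen after seeing the data, genes called of the 10 were 7 for LPS in KO and 2 for CCM in KO without LPS. In the same fits, genes called of all tested were 10023 for LPS in KO, 729 for CCM in KO without LPS and 304 for CCM under LPS in KO. There, the sign changed for LPS in KO of Ddit3 (0.12).

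Leaving out 1 library or animal at a time, the genes called of the 10 ran from 4 to 7 for LPS in KO and from 0 to 2 for CCM in KO without LPS. The genes called of all tested ran from 5429 to 9612 for LPS in KO. They ran from 0 to 16 for CCM in WT without LPS, from 0 to 141 for CCM in KO without LPS, from 893 to 1352 for CCM under LPS in WT, from 0 to 170 for CCM under LPS in KO, from 149 to 295 for LPS by CCM in WT, from 0 to 10 for LPS by CCM in KO and from 0 to 1 for KO against WT under LPS. For LPS in WT, log2 fold changes crossed 0 for Sesn2 (-0.11 to 0.065). For LPS in KO, log2 fold changes crossed 0 for Ddit3 (-0.063 to 0.12) and Atf5 (-0.013 to 0.18). For KO against WT with vehicle, log2 fold changes crossed 0 for Chac1 (-0.26 to 0.016).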
